A study of Equus caballus with 24 samples.

Results

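The genes described here, raised in sarcoids, a skin tumour of horses, are 8 Ensembl horse genes out of 30371 in the count files: ENSECAG00000020251, ENSECAG00000010500, ENSECAG00000018248, ENSECAG00000012744, ENSECAG00000008823, ENSECAG00000016121, ENSECAG00000000931 and ENSECAG00000037347. They were selected on the measured levels themselves, for a level at least 10-fold higher in sarcoid and for every sarcoid library lying above every skin library. All 8 were among the 14930 genes that passed the filter on low counts. These 2 conditions alone were met by 46 genes, 0.308% of those tested, and the 8 are the ones of lowest p among the 46 in edgeR's quasi-likelihood test. A small spread within the groups was therefore part of the choice as well, and the difference between sarcoid and skin is given below as a description, without a test. Neither the count files nor the reference table pairs these IDs with names, so what the genes encode, where they lie and their sequences are not given here, and the tissue labels could not be checked against marker genes.

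Sarcoids are the skin tumours most often seen in horses, built mainly of fibroblast-like cells under an often altered epidermis. They grow into the surrounding skin, seldom spread to other organs, and are associated with infection by bovine papillomaviruses. Because a sarcoid and a piece of skin hold different mixtures of fibroblasts, keratinocytes, vessels, glands and immune cells, a gene can be higher in bulk tumour RNA through more cells of a type or through more RNA per cell, and these data cannot tell those apart.

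Total RNA, depleted of ribosomal RNA, came from 12 sarcoids (labelled as tumour) and from 12 pieces of skin, all from Equus caballus, the horse. The labels used here give the tissue only, with no genotype, breed, age, treatment or kind of sarcoid, and do not say where the skin was taken. Libraries are named by the number in their title, which is not said to mark an animal, so the tests measure the spread between these pieces of tissue. The titles of 4 sarcoids, 65L, 67L, 71L and 74L, end in an L whose meaning the labels do not give. Levels are CPM, a gene's reads as a share of the reads counted in all genes, on library sizes scaled by TMM, a correction for differences in composition.

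Gene counts, the reads counted in genes and not all reads sequenced, ran from 9673480 to 31769803 per library, and TMM factors from 0.468 to 1.60. Sarcoid 4 stood apart with the lowest factor and with 23.9% of its reads aligned to several places, and its 8 genes together took 0.0978% of gene counts, the lowest share among the sarcoids. Sarcoid 2 had the lowest gene counts, the highest factor and, among the sarcoids, the highest share of reads in no gene, 35.9%. As 85.4% of its total was not counted in a gene, its low gene counts do not show how deeply it was sequenced. Sarcoid 6 had the second highest factor of the sarcoids, 1.36. Skin 9 stood apart on the 386 genes called at least 8-fold lower in sarcoid, with a mean of 1.27 on the log2 CPM scale where its group otherwise lay between 3.72 and 4.33. For the 8 genes all sarcoid libraries stayed above all skin libraries in every one of 35 alternative fits, including those without skin 9, without skin 9 and skin 16, and without sarcoid 4. That order was part of how the genes were picked and says nothing about their stability.

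Summed over the 8 genes, the level was 1598 to 3984 CPM in the sarcoids and 90.3 to 245 CPM in the skin libraries. The genes lay 11.9-fold to 30.9-fold higher in sarcoid, with a median log2 fold change of 4.05 against 0.02 over all genes tested. For orientation, 27.9% of tested genes were called higher in sarcoid at an adjusted p under 0.05, and in 2.87% the sarcoids all lay above the skin libraries. All 8 genes are in both sets because of how they were chosen.

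ENSECAG00000020251 had the widest gap between the groups relative to its level. Its lowest tumour was sarcoid 2 at 47.8 CPM and its highest sarcoid 3 at 140.1 CPM, around a median of 84.3 CPM, and in skin between 1.93 and 7.31 CPM with a median of 3.99 CPM. The lowest sarcoid was 6.53 times the highest skin library, skin 13. The log2 fold change was 4.39 ± 0.23 (SE), and all 12 sarcoids lay within 2-fold of their median.

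ENSECAG00000018248 had the highest counts of the 8, from 4998 to 31089 reads in a sarcoid. Sarcoid 6 was lowest at 808 CPM, the median was 1546 CPM, and sarcoid 3 was highest at 2345 CPM. Skin libraries lay between 33.5 and 128 CPM, with a median of 87.8 CPM. They split loosely, with skin 6, 14 and 9 at 33.5, 36.0 and 44.3 CPM and 5 libraries between 111 and 128 CPM. The lowest sarcoid was 6.29 times the highest skin library, and the log2 fold change was 4.19 ± 0.27 (SE).

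ENSECAG00000037347 showed the largest fold change and the widest relative spread in skin. Its lowest tumour was sarcoid 6 at 25.2 CPM and its highest sarcoid 11 at 115 CPM, around a median of 44.4 CPM, and the skin from 0.560 CPM in skin 2 to 4.24 CPM in skin 9, with a median of 1.72 CPM. The log2 fold change was 4.95 ± 0.38 (SE), 30.9-fold. Sarcoids 11, 9 and 3 stood together at the top at 115, 108 and 104 CPM, and the next was sarcoid 74L at 70.5 CPM. Its skin levels rest on few reads. Skin 2 had 9 (95% Poisson interval 4.12 to 17.1, counting error only), and the deepest-covered skin library for this gene had 95.

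On the TMM scale ENSECAG00000010500 was even among the sarcoids apart from a single tumour. Sarcoid 71L reached 223 CPM, while the others lay between 73.7 CPM in sarcoid 2 and 137 CPM in sarcoid 10, around a median of 100.1 CPM. Skin ranged from 4.20 to 16.3 CPM with a median of 7.18 CPM, and skin 13 was highest. The log2 fold change was 3.77 ± 0.22 (SE).

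ENSECAG00000012744 had a single high tumour of the same kind. Sarcoid 9 reached 250.1 CPM, the next was sarcoid 12 at 158 CPM, and sarcoid 6 was lowest at 62.0 CPM, around a median of 118 CPM. Of the 12 skin libraries, 9 lay between 4.14 and 7.01 CPM, and skin 11, 15 and 17 stood above them at 11.6, 14.5 and 18.9 CPM. The log2 fold change was 3.92 ± 0.27 (SE).

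ENSECAG00000008823, ENSECAG00000016121 and ENSECAG00000000931 had the largest ratios of highest to lowest sarcoid. ENSECAG00000008823 was lowest in sarcoid 2 at 125 CPM and highest in sarcoid 12 at 831 CPM, a ratio of 6.66, around a median of 434 CPM. Its skin libraries lay between 10.005 and 37.7 CPM with a median of 26.2 CPM, and its log2 fold change was 4.14 ± 0.30 (SE). In this gene, sarcoids 2, 10 and 6 were the 3 lowest.

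ENSECAG00000016121 was lowest in sarcoid 2 at 160.0 CPM and highest in sarcoid 74L at 813 CPM, around a median of 488 CPM. Skin lay between 9.70 CPM in skin 16 and 62.5 CPM in skin 11, with a median of 27.7 CPM. The lowest sarcoid was 2.56 times the highest skin library, the narrowest gap of the 8, and the log2 fold change was 3.95 ± 0.28 (SE). Sarcoids 2, 10 and 6 were again the 3 lowest.

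ENSECAG00000000931 had the smallest fold change, 11.9-fold, with a log2 fold change of 3.57 ± 0.27 (SE). It lay between 12.6 CPM in sarcoid 2 and 65.7 CPM in sarcoid 12, with a median of 30.7 CPM, and in skin between 1.76 and 4.78 CPM, with a median of 2.43 CPM. Sarcoids 2, 4 and 10 were its 3 lowest.

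**Figure D1:**
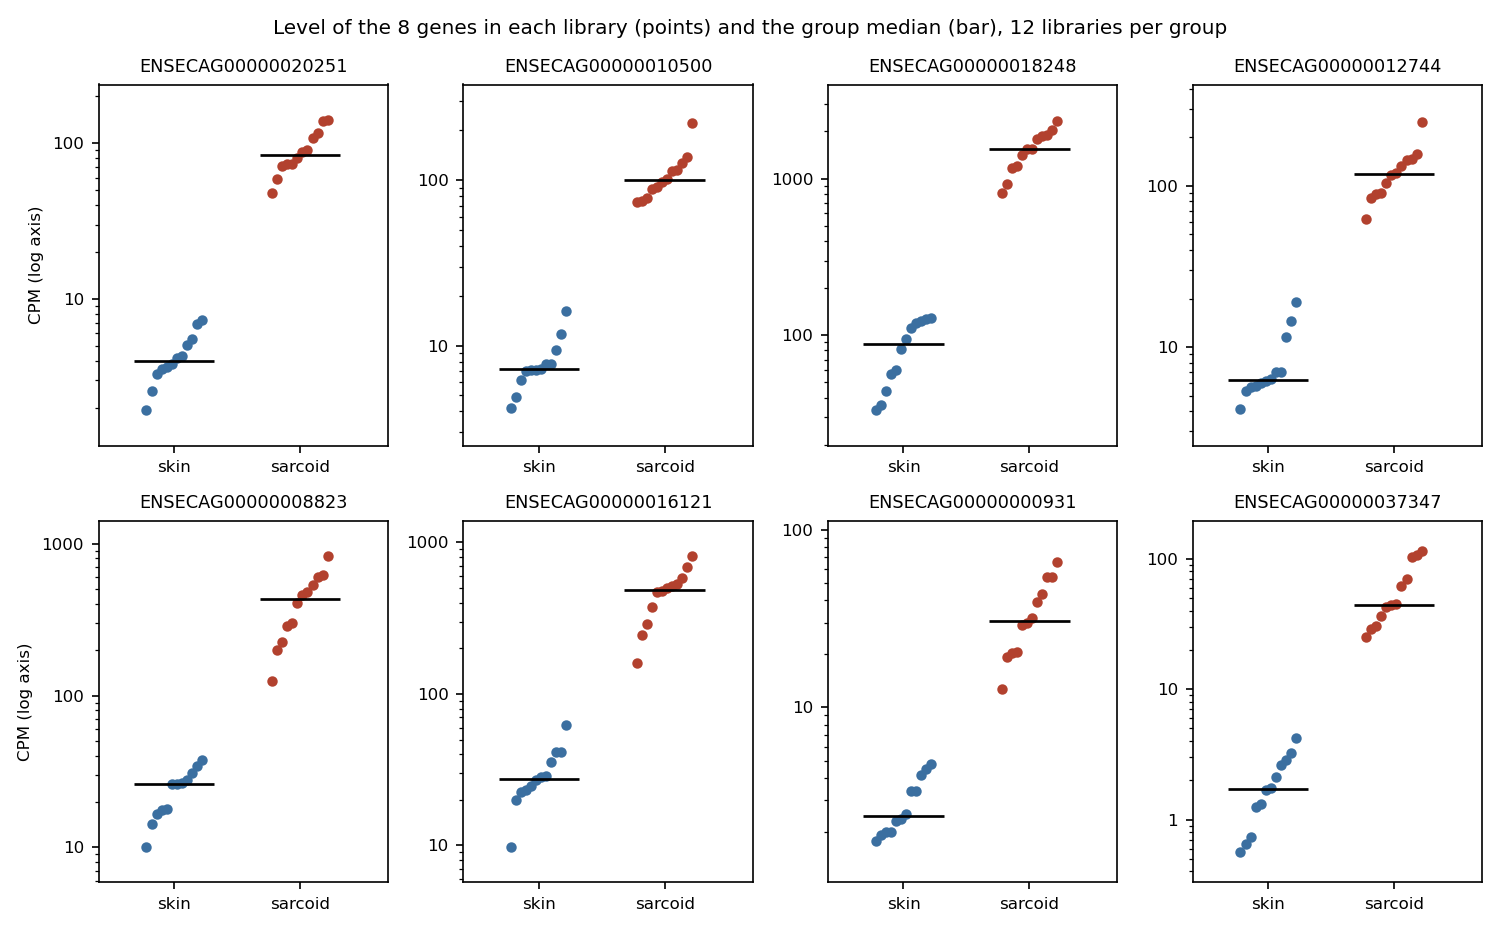
Level of each of the 8 genes in CPM, on a log axis, with 1 point per library (12 skin, 12 sarcoid) and a bar at the group median. In every panel the lowest sarcoid point lies above the highest skin point, by 2.56 times (ENSECAG00000016121) to 6.53 times (ENSECAG00000020251), which is how the genes were picked.

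At the limits of the selection the values were close on both sides. Among genes whose groups did not overlap, the fold changes nearest to 10 were 10.03 inside and 9.96 outside. By the ratio of log2 fold change to its standard error, the eighth gene, ENSECAG00000037347, had 13.1 and the ninth, which is not among the 8, had 13.02. The list of 8 is thus a top section of a continuous ranking.

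Which tumours were low across the 8 genes depended on the scaling. On the TMM scale sarcoid 2 was the lowest tumour in 5 genes and among the 3 lowest in all 8. Sarcoid 6 was the lowest in the remaining 3 genes and among the 3 lowest in 6. Neither lay above the sarcoid median in any of the 8 genes. On library totals alone, a scale added after seeing the data, sarcoid 4 was instead the lowest tumour in all 8 genes. Sarcoid 2 then lay above the median in 4 genes and sarcoid 6 in 2, and each was among the 3 lowest in 3. The share of gene counts taken by the 8 genes was 0.271% in sarcoid 2, the seventh lowest of 12. Sarcoid 74L lay above the median in all 8 genes on both scales. On the TMM scale it was highest in ENSECAG00000016121, sarcoid 3 was highest in ENSECAG00000020251 and ENSECAG00000018248, and sarcoid 12 in ENSECAG00000008823 and ENSECAG00000000931. Sarcoids 9, 11 and 71L were each highest in 1 gene.

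The spread among the sarcoids differed from gene to gene. The SD on the log2 CPM scale was 0.45 in ENSECAG00000010500, 0.47 in ENSECAG00000018248 and 0.47 in ENSECAG00000020251. It was 0.80 in ENSECAG00000008823, 0.77 in ENSECAG00000037347 and 0.72 in ENSECAG00000000931. The median over the 8 genes was 0.59, against 0.55 over all tested genes. In skin these medians were 0.60 and 0.43, with the largest SD, 0.86, in ENSECAG00000037347.

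**Figure D2:**
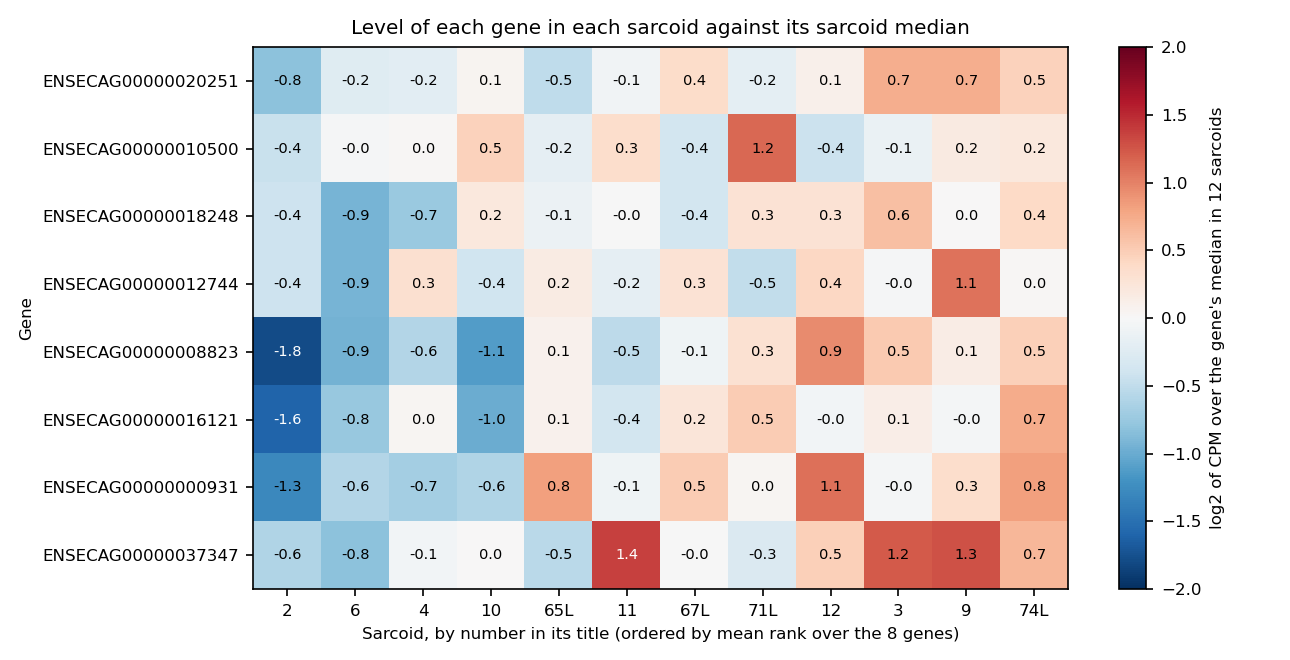
Level of each gene (rows) in each of the 12 sarcoids (columns) as the log2 of its CPM over the gene's median in the sarcoids, with columns ordered by mean rank over the 8 genes, from 1.63 in sarcoid 2 to 9.75 in sarcoid 74L. On this TMM scale sarcoids 2 and 6, whose factors of 1.60 and 1.36 are the highest of the sarcoids, lie below the median in every row, which does not hold on library totals alone, and the high values of single genes are in different tumours, such as 1.16 for ENSECAG00000010500 in sarcoid 71L.

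How the 8 genes varied together was examined within each group alone. The selection used each gene's own levels and spread in these libraries, but no relation between genes. Within the 12 sarcoids, 26 of the 28 pairs of genes had a Pearson's r above 0, and the median r was 0.48. The median was -0.003 over all pairs of tested genes, of which 12% had an r of 0.48 or more. It was 0.131 over pairs of the 4165 genes called higher in sarcoid, and 0.372 over pairs of the other 38 genes that met both conditions. Every pair shares its libraries and their scaling. A total of 4 of the 28 pairs passed an adjusted p of 0.05 in permutation tests, and these tie 5 of the 8 genes into 2 sets. The share of pairs that pass was not computed for other genes, so such sets are not shown to be particular to the 8.

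The first set was ENSECAG00000008823, ENSECAG00000016121 and ENSECAG00000000931. Between ENSECAG00000008823 and ENSECAG00000000931 Pearson's r was 0.88 (permutation p = 0.00015, adjusted p = 0.0042), and by ranks Spearman's rho was 0.79 (permutation p = 0.00301, adjusted p = 0.0421). Without sarcoids 2 and 10 r was 0.77. Between ENSECAG00000008823 and ENSECAG00000016121 r was 0.86 (permutation p = 0.00034, adjusted p = 0.00476), and by ranks rho was 0.68 (permutation p = 0.0191, adjusted p = 0.107), with r = 0.64 without sarcoids 2 and 10. ENSECAG00000016121 and ENSECAG00000000931 had r = 0.74 (permutation p = 0.00484, adjusted p = 0.0339), and by ranks rho was 0.58 (permutation p = 0.0519, adjusted p = 0.182), and r fell to 0.48 without the same 2 tumours. Sarcoid 2 lies at the low end of all 3 genes. When it alone was left out, r was 0.82, 0.76 and 0.60 for these pairs and none passed (adjusted permutation p = 0.0834, 0.0869 and 0.290). The first 2 pairs passed with any other single sarcoid left out, and the third passed in 4 of 12 such fits. With library size alone the third pair lost its call, with r = 0.70 (adjusted permutation p = 0.0615).

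The second set was ENSECAG00000020251 and ENSECAG00000037347, with r = 0.76 (permutation p = 0.0044, adjusted p = 0.0339), and by ranks rho was 0.80 (permutation p = 0.00274, adjusted p = 0.0421). Without sarcoids 2 and 3 r was 0.67. When single sarcoids were left out in turn r lay between 0.70 and 0.89, and the pair passed in 2 of 12 such fits (adjusted permutation p between 0.00574 and 0.116, the highest without sarcoid 9). With library size alone the pair lost its call, with r = 0.74 (adjusted permutation p = 0.0515).

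ENSECAG00000010500 had low r with the others on the TMM scale. Its r with the other 7 genes ran from -0.26 with ENSECAG00000012744 to 0.31 with ENSECAG00000018248 within the sarcoids, and none of these pairs passed (adjusted permutation p of 0.449 or more). Sarcoid 71L, its highest tumour, was second lowest for ENSECAG00000012744 at 84.0 CPM. Without sarcoids 71L and 10 the r with ENSECAG00000012744 was 0.08. With library size alone, ENSECAG00000010500 had r = 0.65 with ENSECAG00000018248 (adjusted permutation p = 0.0826), 0.47 with ENSECAG00000020251 and 0.04 with ENSECAG00000012744. ENSECAG00000018248 and ENSECAG00000012744 lay in between, with r from 0.21 to 0.62 with the members other than ENSECAG00000010500, and none of their pairs passed.

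Within skin the 28 pairs had a median r of 0.35, against -0.001 over all pairs of tested genes and 0.227 over pairs of the other 38 genes that met both conditions. None passed (6 pairs had an unadjusted permutation p under 0.05). The pairs named above had r of 0.78 for ENSECAG00000008823 with ENSECAG00000016121 (permutation p = 0.00223, adjusted p = 0.0624, rho = 0.69, r = 0.60 without skin 16 and 14) and 0.65 for ENSECAG00000020251 with ENSECAG00000037347 (permutation p = 0.0213, adjusted p = 0.149, rho = 0.62, r = 0.45 without skin 2 and 13). For ENSECAG00000000931, r was 0.59 with ENSECAG00000016121 and 0.53 with ENSECAG00000008823. ENSECAG00000037347 had r below 0 in skin with ENSECAG00000018248 (-0.39), ENSECAG00000012744 (-0.39), ENSECAG00000016121 (-0.30) and ENSECAG00000008823 (-0.18), where the same pairs had r of 0.59, 0.54, 0.35 and 0.48 in the sarcoids. The difference between the groups was not tested, and the skin counts of ENSECAG00000037347 are low. The number of skin pairs that passed depended on the scaling, with 9 passing under library totals as the only scaling.

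**Figure D3:**
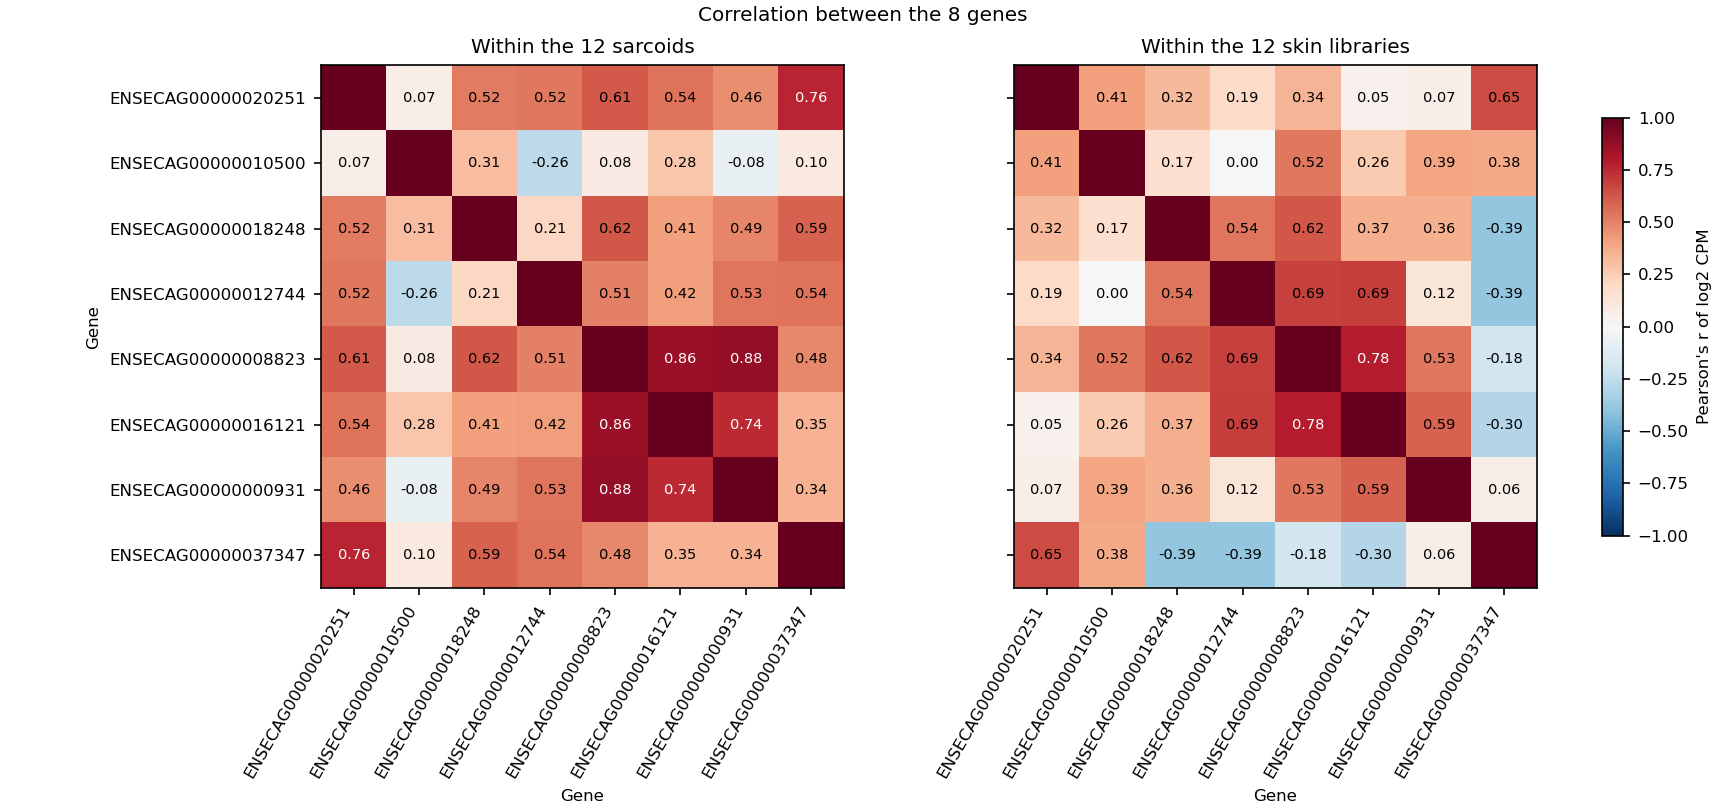
Pearson's r of log2 CPM for each pair of the 8 genes within the 12 sarcoids (left) and within the 12 skin libraries (right), with the same colour scale from -1 to 1 and the diagonal left without a number. The block of ENSECAG00000008823, ENSECAG00000016121 and ENSECAG00000000931 holds 0.74 to 0.88 in the sarcoids and 0.53 to 0.78 in skin, while ENSECAG00000010500 is pale in the sarcoids.

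The ratio of 2 genes' raw counts within a library needs no scaling. Across the sarcoids the log2 ratio of ENSECAG00000008823 to ENSECAG00000000931 had an SD of 0.38, the lowest of the 28 pairs, and its ratio to ENSECAG00000016121 an SD of 0.41. The highest SD was 0.88, for ENSECAG00000010500 against ENSECAG00000008823. The other pairs that passed had an SD of 0.50 (ENSECAG00000016121 with ENSECAG00000000931) and 0.51 (ENSECAG00000020251 with ENSECAG00000037347). ENSECAG00000020251 had lower SDs with ENSECAG00000018248, 0.46, and with ENSECAG00000012744, 0.49, pairs that did not pass. In skin the SD for ENSECAG00000008823 with ENSECAG00000016121 was 0.42.

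**Figure D4:**
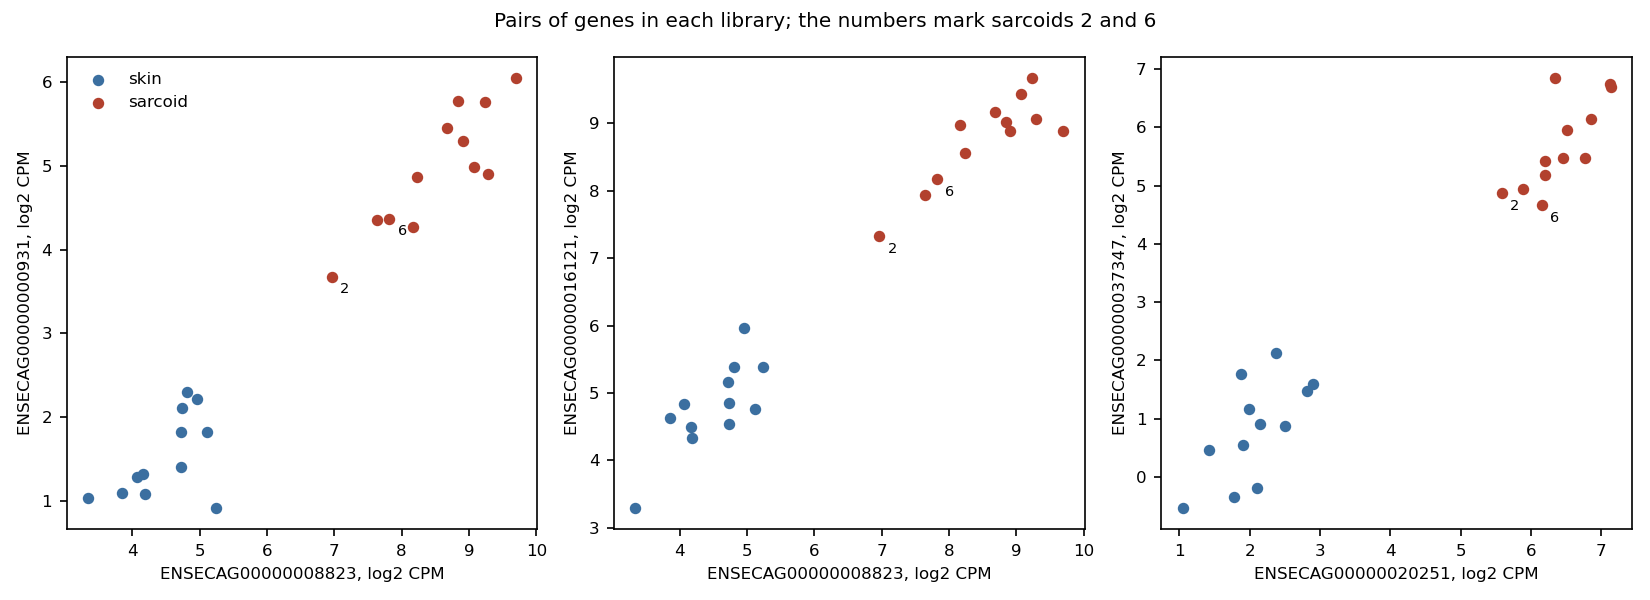
log2 CPM of 3 pairs of genes, with 1 point per library (12 skin in blue, 12 sarcoids in red) and sarcoids 2 and 6 marked. Within the sarcoid points r is 0.88 for ENSECAG00000008823 with ENSECAG00000000931, 0.86 with ENSECAG00000016121, and 0.76 for ENSECAG00000020251 with ENSECAG00000037347.

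Some of the 8 genes moved among the sarcoids with other properties of the library. Over 48 relations, 8 genes with 6 measures, 5 passed an adjusted p of 0.05 by Pearson's r and 0 by Spearman's rho. These relations were not computed for genes outside the list, so they are not shown to be particular to the 8. The measure called the lower genes was the mean log2 CPM of the 386 genes called at least 8-fold lower in sarcoid, a list taken from the same contrast. It ran from -1.46 in sarcoid 9 to 2.02 in sarcoid 10. Sarcoids 2 and 6, low on the 8 genes on the TMM scale but not on library totals alone, stood at 1.79 and 1.69. Sarcoid 10, the highest on this measure, lay above the sarcoid median in 4 of the 8 genes on the TMM scale. All 8 genes had r below 0 with it, with a median of -0.61.

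ENSECAG00000016121 had r = -0.80 with the level of these lower genes (permutation p = 0.0016, adjusted p = 0.0384), with a rho of -0.56 (permutation p = 0.0627) and, leaving out sarcoids 10 and 2, r = -0.63. ENSECAG00000008823 had r = -0.77 (permutation p = 0.00374, adjusted p = 0.0449), with a rho of -0.64 (permutation p = 0.0306) and, leaving out those tumours, r = -0.58. ENSECAG00000012744 had r = -0.74 (permutation p = 0.00511, adjusted p = 0.0491), with a rho of -0.76 (permutation p = 0.00601) and, leaving them out, r = -0.74. With ENSECAG00000010500, r was -0.01. When single sarcoids were left out in turn, these 3 relations passed in 7, 2 and 4 of 12 fits. Without sarcoid 2 alone they had r of -0.77, -0.71 and -0.74 and none passed (adjusted permutation p = 0.113, 0.168 and 0.113), and without sarcoid 6 ENSECAG00000012744 had an adjusted permutation p of 0.223. With library totals as the only scaling, r was -0.35, -0.39 and -0.07, in the same order, so these relations depended on the scaling.

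The relation with log2 gene counts, which leave out reads not counted in a gene, passed for 2 genes of the first set. No relation with all reads sequenced was computed. The third, ENSECAG00000016121, leaned the same way without passing, with r = 0.67 (permutation p = 0.0168, adjusted p = 0.116). Its rho was 0.62 (permutation p = 0.0376) and its r was 0.63 without sarcoids 12 and 2. ENSECAG00000000931 had r = 0.88 with log2 gene counts (permutation p = 0.00019, adjusted p = 0.00912), with a rho of 0.80 (permutation p = 0.00253) and, leaving out sarcoids 12 and 2, r = 0.76. ENSECAG00000008823 had r = 0.77 (permutation p = 0.00329, adjusted p = 0.0449), with a rho of 0.73 (permutation p = 0.0091) and, leaving them out, r = 0.51. When single sarcoids were left out in turn, ENSECAG00000000931 passed in 11 of 12 fits and ENSECAG00000008823 in 4 of 12. Both lost the call without sarcoid 2, with r = 0.82 and 0.65 (adjusted permutation p = 0.106 and 0.251). Both also lost it with library size alone, with r = 0.64 and 0.61 (adjusted permutation p = 0.144 and 0.161), and ENSECAG00000008823 with RLE factors (adjusted permutation p = 0.0509). With all 12 sarcoids, none of the 8 genes passed with the TMM factor, the number of genes detected, the share of reads in no gene or the share aligned to several places. This depended on sarcoid 4. Without sarcoid 4 the number of relations that passed was 15 of 48, and without sarcoid 2 it was 0. The 15 included relations with the TMM factor, the genes detected and the share in no gene. For ENSECAG00000008823 these had r of -0.85, -0.87 and -0.86 (adjusted permutation p = 0.00843, 0.00492 and 0.00492). ENSECAG00000000931 passed with the same measures, with r of -0.83, -0.73 and -0.87. What part gene counts or the lower genes have in the joint variation of the 8 genes was not tested. With the level of the lower genes taken out of each gene by a straight line, the median r of the 28 pairs was 0.16 in place of 0.48, and for the 4 pairs that passed it was 0.82 for ENSECAG00000008823 with ENSECAG00000000931, 0.62 for ENSECAG00000008823 with ENSECAG00000016121, 0.63 for ENSECAG00000020251 with ENSECAG00000037347 and 0.56 for ENSECAG00000016121 with ENSECAG00000000931.

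The 4 sarcoids with an L in the title were compared with the other 8 in a fit of the sarcoids alone. None of the 8 genes differed at an adjusted p under 0.05, nor did any of the 15246 genes tested (0%). At an unadjusted edgeR p under 0.05 there were 1382 of the 15246 genes and 1 of the 8, a share close to that of all genes. DESeq2 called 135 genes, none of the 8. ENSECAG00000016121 came nearest. On the TMM scale of the fit with both groups, it lay at 519, 578, 693 and 813 CPM in sarcoids 65L, 67L, 71L and 74L. The other 8 lay between 160.0 and 533 CPM on that scale, where only sarcoid 3 reached into the range of the first 4. In the fit of the sarcoids alone, ENSECAG00000016121 ran from 472 to 753 CPM with L and from 148 to 500 CPM in the others. Its log2 fold change, L over other, was 0.77 ± 0.31 (SE, 95% interval 0.11 to 1.44, edgeR adjusted p = 0.510). ENSECAG00000000931 had 0.64 (95% interval -0.15 to 1.42) and ENSECAG00000037347 had -0.54 (-1.49 to 0.41). The other 5 genes lay between -0.08 and 0.39, with 95% intervals reaching down to -0.78 (ENSECAG00000012744) and up to 1.33 (ENSECAG00000008823).

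The 2 genes outside the list with the highest median r with the 8 over the 12 sarcoids were ENSECAG00000001058, with a median of 0.74 (0.27 to 0.81), and ENSECAG00000018381, with a median of 0.73 (0.05 to 0.84). Each member was closer to some gene outside the list than to any member. The best of 14930 tested genes is set here against the best of a few members, so this order says little about the list. The highest r of a member with any tested gene was between 0.82, for ENSECAG00000037347, and 0.96, for ENSECAG00000008823. For ENSECAG00000037347 only 10 of the tested genes had a higher r than its nearest member, ENSECAG00000020251, while for ENSECAG00000010500 2574 genes did. No such count was computed for a list of unrelated genes, so these counts have no level to be read against. These values are a description over 12 libraries that all genes share.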

How the data were processed

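The deposited values are whole-number counts of reads per Ensembl gene ID, 1 file per library, not normalized. Per the submitters' processing notes, the reads were handled with FastQC, TopHat2, HTSeq and DESeq2 on build EquCab3.0. Versions, settings, annotation release and use of strand were not given in the sources used here, so overlapping, antisense or near-identical genes are uncertain. The 5 summary rows of each file, 72.6% to 86.6% of its total, stayed out of library sizes. Of the 30371 IDs, 0 were found in a RefSeq table of 39335 horse genes.

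Counts were filtered with filterByExpr, scaled by TMM and fitted with edgeR 4.0.16's quasi-likelihood test in R 4.3.3, with Benjamini-Hochberg adjustment over all genes. Standard errors are the log2 fold change over the root of F. The comparison of titles with L was fitted on the sarcoids alone, and its 95% intervals use the fit's own degrees of freedom. Correlations used log2 CPM with a prior count of 2 and two-sided permutation tests of 100000 resamples, adjusted over 28 pairs or 48 relations. Alternatives used DESeq2 1.42.0 and limma 3.58.1. Scripts were tested on simulated data. The 8 genes, the libraries left out and the measures were chosen with earlier results of these data known. The rule for named genes took the 8 members, the values nearest the limits of the selection, and the 2 other genes of highest median r with the 8. Marker and pathway lists were not used, as no ID has a name.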

Additional observations from a re-analysis of the deposited data

How the results depend on the processing

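Over 35 alternatives the log2 fold changes of the 8 genes lay between 2.81 and 5.32, and the median between 3.72 (library size alone) and 4.15. The number of genes meeting both conditions of the selection was 42 to 75 when single libraries were left out, with 75 without sarcoid 2, and 31 with library size alone, where ENSECAG00000000931 had a log2 fold change of 3.28, under the 3.32 of a 10-fold difference. Of the 8 genes of lowest p among them, 5 to 8 were members when single libraries were left out, again lowest without sarcoid 2. The deviations of same-numbered sarcoid and skin libraries had r of 0.49 for number 9 and 0.16 for number 6, but -0.02, 0.06 and -0.03 for numbers 2, 3 and 11. Between different numbers r ran from -0.51 (sarcoid 6 with skin 9) to 0.25 (sarcoid 2 with skin 6). All but number 9 lay within that range, so these values do not settle whether equal numbers mark an animal. As the labels do not say so either, the numbers were not taken as pairs. With the specimen number as a replicate block over the 10 same-numbered libraries, 3 of the 8 were members and ENSECAG00000000931 had a log2 fold change of 2.81, against 4 and 2.84 without the block.

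Pairs of genes passing within the sarcoids numbered 4, and 2 by Spearman's rho, 2 with library size alone, 1 without the titles with L, 0 without sarcoids 2 and 6 (left out after seeing the data), and 0 to 4 with single sarcoids left out. The median r was 0.61 without the titles with L, a setting that leaves 8 sarcoids. It was 0.23 without sarcoids 2 and 6 and 0.16 as a partial r given the lower genes, both added after seeing the data. In skin, library size alone gave 9 pairs and a median r of 0.55, and leaving out single libraries 0 to 3 pairs, with 3 without skin 17. Relations with library measures numbered 2 with RLE factors, 2 with a prior count of 0.5, 0 with library size alone, and 0 to 15 with single sarcoids left out. Between titles with L and the others, DESeq2 called 135 genes. The log2 fold changes near 0 changed sign there. Under limma's voom they were -0.19 for ENSECAG00000010500, -0.0255 for ENSECAG00000018248 and 0.27 for ENSECAG00000012744. With single sarcoids left out they ran from -0.19 to 0.13 for ENSECAG00000020251, -0.12 to 0.49 for ENSECAG00000010500 and -0.18 to 0.14 for ENSECAG00000012744. The causes of these changes were not tested. Low counts limit the skin levels of ENSECAG00000037347 and ENSECAG00000000931 most, with as few as 9 and 19 reads in a library.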
